A study of Mus musculus with 7 samples.

Results

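The genes described here are the neutrophil-attracting CXC chemokines and their receptors, chosen by name: the ligands Cxcl1, Cxcl2, Cxcl3, Cxcl5 and Ppbp and the receptors Cxcr1 and Cxcr2, which make 7 of the 27179 genes measured. Their transcripts were read by RNA sequencing of whole ankles, dissected without skin, from mice of the DBA1 strain in which collagen-induced arthritis had been raised by immunisation against collagen. Both groups were arthritic and both received a lipoplex, a lipid carrier of RNA, by injection into the joint. In 1 group the lipoplex carried miR-17-5p as a mimic, a synthetic copy of that microRNA (4 libraries, called mimic), and in the other an irrelevant microRNA (3 libraries, called control). Neither the labels nor the design text give the age and sex of the mice, the dose, the time after injection or the cells reached by the lipoplex, and no healthy or uninjected ankle was analysed here. The labels do not state that each library came from another mouse, and the p-values below cover only the spread among them, which may be technical. The question was what a raised level of miR-17-5p does to the transcripts of an arthritic joint.

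CXC chemokines with an ELR (glutamate, leucine, arginine) motif before their cysteines draw neutrophils from blood into inflamed tissue. They act on the G protein-coupled receptor CXCR2 and, to differing degrees, on CXCR1, both of which are carried mainly by neutrophils. Synovial fibroblasts, macrophages and endothelium make Cxcl1, Cxcl2, Cxcl3 and Cxcl5 when stimulated through IL-1, TNF or IL-17 receptors, largely by way of NF-kB, whereas the product of Ppbp is stored in platelet granules.

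The sequence of the injected mimic's namesake is shown because its seed, the bases that pair with a target, sets where it could bind the members. It is the mature mouse miR-17-5p of RefSeq (GRCm38.p6, chr14:115043684-115043706, plus strand), 23 bases long, printed 5′ to 3′ with bases 2 to 8, the seed, in capitals.
mmu-miR-17-5p: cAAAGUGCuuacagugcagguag

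The promoters of Cxcl3, Cxcl1 and Cxcl2 are shown because these neighbouring genes share an identical NF-kB motif. Each run holds the 120 bases before the RefSeq start and the first 10 from it, on the plus strand of GRCm38.p6. Capitals mark the match to the NF-kB consensus, which begins 73, 71 and 97 bases before the start of Cxcl3, Cxcl1 and Cxcl2.
Cxcl3, chr5:90785981-90786110: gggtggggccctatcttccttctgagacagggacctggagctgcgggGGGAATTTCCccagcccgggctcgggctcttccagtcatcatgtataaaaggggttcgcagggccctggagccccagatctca
Cxcl1, chr5:90891125-90891254: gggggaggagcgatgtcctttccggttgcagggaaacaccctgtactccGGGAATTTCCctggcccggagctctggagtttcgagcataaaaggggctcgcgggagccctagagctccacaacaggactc
Cxcl2, chr5:90903779-90903908: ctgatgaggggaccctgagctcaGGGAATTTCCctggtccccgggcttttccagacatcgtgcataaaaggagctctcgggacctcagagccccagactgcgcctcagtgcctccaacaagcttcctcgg

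The NF-kB consensus was searched on both strands of 300 bases around each start, and 8.46% of 32851 RefSeq promoters held it. Of the 6 members with a promoter in that table, Cxcl1, Cxcl2 and Cxcl3 held it and Ppbp, Cxcr1 and Cxcr2 did not. All 3 matches were the run GGGAATTTCC, found in 29 promoters, 0.0883% of the total, and the minus-strand matches overlapped it. TATAAA, present in 13.6% of promoters, lay 30 bases before the start of Cxcl3 and, in 2 copies, before that of Ppbp. The pattern TGANTCA (7.81%) was found in Ppbp alone, as TGAATCA, and the C/EBP motif TTNNGNAA (40.7%) in Cxcl2 alone. The run ATAAAAGG, chosen after the sequences were seen and held by 1.76% of promoters, lay 29, 34 and 57 bases before the starts of Cxcl3, Cxcl1 and Cxcl2, and on the minus strand of Ppbp.

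The libraries held 27465276 to 31118975 assigned reads, and 13130 to 13470 genes reached 1 FPKM (fragments per kilobase of exon, scaled to the reads of the library) in each. All 7 members passed the filter for low values, a mean of at least 1 FPKM over the libraries, as did 13418 genes in all. Control replicate 5 stood apart: its 6 keratinocyte markers (Krt5, Krt14, Krt1, Krt10, Lor and Ivl) summed to 80.7 FPKM, against 1.06 to 1.68 FPKM in the other 6 libraries. The 8 skeletal muscle markers summed to 1062 to 6057 FPKM in controls, lowest in replicate 5, and to 2326 to 8411 FPKM in mimic ankles. The 6 erythroid markers found summed to 153 to 655 FPKM in controls, again lowest in replicate 5, and to 217 to 1719 FPKM in mimic ankles. All 8 muscle and 5 tested erythroid genes had a higher mean in mimic ankles. Of these, 0 had an unadjusted limma p under 0.05, beside 2356 of the 13418 genes in either direction. Without control replicate 2, 6 muscle genes reached that level, and the total over all genes was 3833. Without mimic replicate 5, 5 erythroid genes reached it, and that total was 1666. The part of skin, muscle or blood content in the member values was not tested. Markers of the joint were present in every library, with 9 synovial fibroblast genes summing to 7903 to 9022 FPKM and 6 bone and cartilage genes to 1917 to 2059 FPKM.

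Transcripts of 4 of the 5 ligands and of both receptors had a lower mean in mimic ankles, and Ppbp, the platelet chemokine, did not. Cxcl1, Cxcl3, Cxcl5, Cxcr1 and Cxcr2 had all mimic libraries below all controls. For Cxcl1, Cxcl5 and Cxcr2 the control level was about 2.70 to 3.04 times the mimic level on the scale of log2(FPKM + 0.5). None of the 7 passed over all genes with limma (adjusted p from 0.173 to 0.937), and neither did any of the 13418 genes tested (0%, lowest adjusted p 0.148). At an unadjusted limma p under 0.05, 5 of 7 members were lower, beside 10.1% of all genes tested. The groups were apart, with the mimic lower, at 5 of 7 members and at 8.84% of all genes. The median log2 fold change was -1.12 over the members and -0.0063 over all genes tested.

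**Figure D1:**
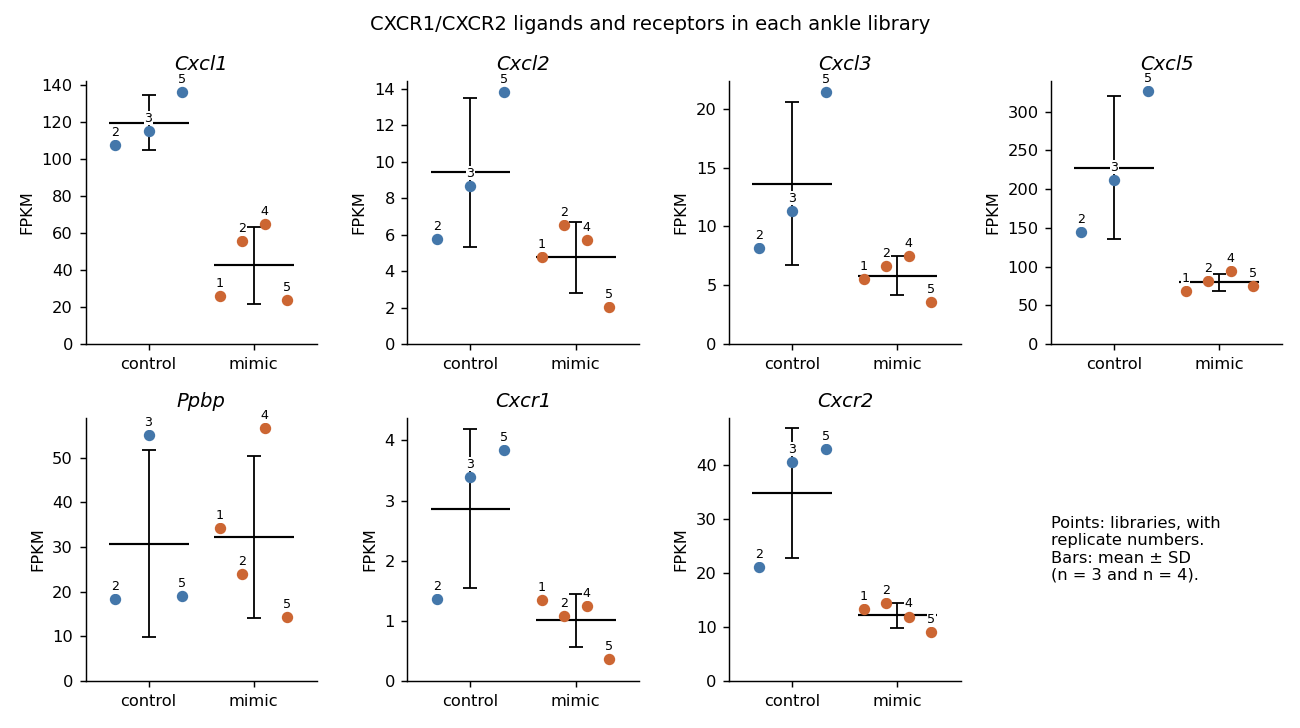
Level of each ligand and receptor in each library (y axis, FPKM, linear, from 0); points are libraries numbered by replicate, and bars show the mean ± SD of 3 control and 4 mimic libraries. The groups are apart for Cxcl1, Cxcl3, Cxcl5, Cxcr1 and Cxcr2, by 1.354 against 1.347 FPKM for Cxcr1, and overlap for Cxcl2 and Ppbp.

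Cxcl5, a chemokine of stimulated stromal and epithelial cells, was the most abundant of the ligands in every library. Its level was 145, 212 and 327 FPKM in control replicates 2, 3 and 5 and 68.5, 81.3, 94.1 and 75.5 FPKM in mimic replicates 1, 2, 4 and 5, an order kept below. The mimic libraries lay close together, whereas the controls spread over a 2.26-fold range, and the lowest control was 1.54 times the highest mimic. The means were 228 ± 92.0 FPKM (SD, n = 3) and 79.8 ± 10.8 FPKM (SD, n = 4). The log2 fold change, mimic minus control, was -1.44 (SE 0.26, 95% interval -2.04 to -0.84, limma adjusted p = 0.173). Cxcl5 lies at chr5:90759299-90761625 of mm10 on the plus strand, in 4 exon blocks, and 3441 to 16661 reads stood behind each value.

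Cxcl1, known as KC in mice and a main early signal for neutrophil entry, was next in abundance in controls. The controls held 107, 115 and 136 FPKM and the mimic libraries 26.1, 55.6, 64.9 and 23.9 FPKM. Here the controls were close together and the mimic ankles fell into a low pair, replicates 1 and 5, and a higher pair, replicates 2 and 4. Even the highest mimic library was below the lowest control, which stood 1.65 times as high. Means of 119.7 ± 15.03 FPKM (SD, n = 3) and 42.6 ± 20.7 FPKM (SD, n = 4) gave a log2 fold change of -1.60 (SE 0.36, 95% interval -2.46 to -0.75, limma adjusted p = 0.174). Only 0.0373% of tested genes had a fold change as low. The gene occupies chr5:90891245-90893121 of mm10, plus strand, with 664 to 4017 reads per library.

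Cxcl3, a close relative of Cxcl2 that acts on the same receptor, was present at a lower level. It stood at 8.16, 11.3 and 21.5 FPKM in controls and 5.56, 6.66, 7.51 and 3.60 FPKM in mimic ankles. Control replicate 5 was far above the other controls, and the lowest control was 1.09 times the highest mimic library. The log2 fold change was -1.09 (SE 0.34, 95% interval -1.90 to -0.29, limma adjusted p = 0.209), between means of 13.6 ± 6.95 and 5.83 ± 1.69 FPKM. The gene lies at chr5:90786103-90788090, plus strand, with 106 to 670 reads per library.

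Cxcl2, known as MIP-2 and made largely by macrophages and neutrophils, gave 5.78, 8.67 and 13.8 FPKM in controls. The mimic libraries gave 4.78, 6.53, 5.73 and 2.03 FPKM, so that mimic replicate 2 lay above control replicate 2 and the groups overlapped. Between means of 9.43 ± 4.08 and 4.77 ± 1.96 FPKM, the log2 fold change was -0.93 (SE 0.40, 95% interval -1.87 to 0.0084, limma adjusted p = 0.287), or -0.61 without mimic replicate 5. It lies at chr5:90903899-90905938, plus strand, and 64 to 462 reads stood behind each value. The longest annotated transcripts of Cxcl2 and Cxcl3 share an identical run of 157 bases, and 5.35% of the 50-base words of Cxcl2 occur in Cxcl3. Those transcripts, of 2066 and 3498 bases, are longer than the joined exons over which reads were counted, 1083 and 1013 bases. Whether the shared run lies within the counted exons was not checked. If it does, its reads could be split between the pair or lost, and both values are uncertain to that extent. Every other pair of members shared a run of at most 23 bases.

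Ppbp, whose product is the platelet basic protein that is trimmed to the neutrophil attractant CXCL7, differed in pattern. Its level was 18.2, 55.1 and 19.0 FPKM in controls and 34.3, 24.0, 56.6 and 14.4 FPKM in mimic ankles. Each group had 1 library above 50 FPKM, control replicate 3 and mimic replicate 4, and the groups overlapped throughout. The log2 fold change was 0.095 (SE 0.53, 95% interval -1.15 to 1.34, limma adjusted p = 0.937), an interval that holds changes of over 2-fold either way. Its sign turned with the leaving out of control replicate 2 (-0.18), control replicate 5 (-0.15) or mimic replicate 4 (-0.23). Ppbp lies at chr5:90768518-90770060, plus strand. Over the 9 tested genes of the platelet and megakaryocyte list the median log2 fold change was 0.070, and the list summed to 124 to 179 FPKM in controls and 87.9 to 172 FPKM in mimic ankles, in both groups highest in the library where Ppbp was highest. Of this list 1 gene, the integrin Itgb3, had an unadjusted limma p under 0.05 (-0.40, SE 0.13), where 10.1% of all genes tested were lower. That count became 0 without control replicate 3 or control replicate 5. The genes at that level in either direction, 2356 with all libraries, then became 1657 and 1216.

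Since FPKM is per length, the levels of the ligands can be set side by side. The 5 ligands summed to 284, 402 and 517 FPKM in controls and 139, 174, 229 and 119 FPKM in mimic ankles. Cxcl5 made 50.9, 52.7 and 63.1% of that sum in controls and 49.2, 46.7, 41.1 and 63.2% in mimic ankles. The share of Cxcl1 was 30.9 ± 6.04% in controls and 24.8 ± 6.40% in mimic ankles, and that of Ppbp 7.93 ± 5.18% and 18.8 ± 6.83%. Cxcl3 (3.28 ± 0.75 and 3.53 ± 0.46%) and Cxcl2 (2.29 ± 0.34 and 2.85 ± 0.93%) were minor in both groups. When Ppbp was left aside, Cxcl5 made 60.3 ± 5.61% of the remaining sum in controls and 61.5 ± 8.61% in mimic ankles, a difference smaller than either SD, and Cxcl1 made 33.6 ± 6.51% and 30.6 ± 7.87%. On that basis Cxcl2 made 2.48 ± 0.30 and 3.54 ± 1.196%, and Cxcl3 3.54 ± 0.67 and 4.38 ± 0.76%, with overlapping groups for each. The order Cxcl5, Cxcl1, Ppbp, Cxcl3, Cxcl2 held for the means of controls and of mimic ankles, but Cxcl1 and Ppbp overlapped in mimic ankles, Ppbp and Cxcl3 in controls, and Cxcl2 and Cxcl3 in both groups.

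**Figure D2:**
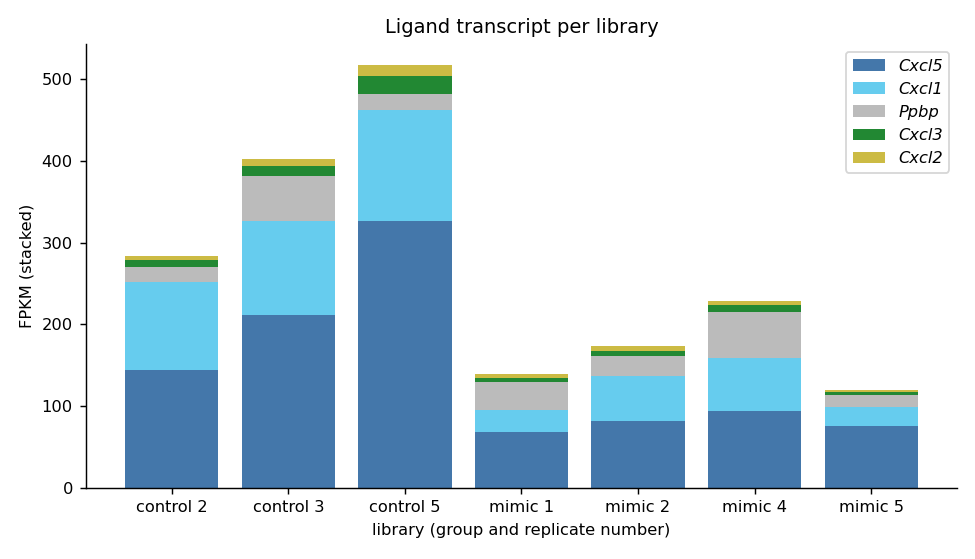
Stacked level of the 5 ligands (y axis, FPKM, linear, from 0) in each library (x axis, group and replicate number). The sums range from 284 to 517 FPKM in the 3 controls and from 119 to 229 FPKM in the 4 mimic libraries, with Cxcl5 the thickest layer in each.

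Cxcr2, the receptor through which all of these ligands act, was apart between the groups. It stood at 21.0, 40.6 and 42.9 FPKM in controls and 13.2, 14.3, 11.9 and 9.05 FPKM in mimic ankles. Control replicate 2 lay nearer to the mimic libraries than to the other controls, at 1.46 times the highest mimic. Means of 34.8 ± 12.02 FPKM (SD, n = 3) and 12.1 ± 2.28 FPKM (SD, n = 4) gave a log2 fold change of -1.43 (SE 0.26, 95% interval -2.05 to -0.82, limma adjusted p = 0.173). The gene lies at chr1:74153994-74161246 of mm10, plus strand, with 800 to 4021 reads per library. A gene of the table that has no symbol overlaps it, and reads of the pair cannot be told apart because no source used here gives the strand setting.

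Cxcr1, the second receptor gene, lies 30538 bases away on the minus strand (chr1:74191785-74194631). It was the least abundant member, at 1.35, 3.40 and 3.83 FPKM in controls and 1.35, 1.09, 1.24 and 0.37 FPKM in mimic ankles. The groups were apart only by 1.354 FPKM in control replicate 2 against 1.347 FPKM in mimic replicate 1, which is 45 against 46 reads. The log2 fold change was -1.12 (SE 0.37, 95% interval -1.98 to -0.26, limma adjusted p = 0.217). Cxcr2 exceeded Cxcr1 in every library, by 11.2 to 15.5 times in controls and 9.59 to 24.6 times in mimic ankles, the largest ratio resting on 12 reads of Cxcr1.

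In a whole ankle, fewer neutrophils and less receptor transcript per neutrophil cannot be told apart. Genes of mature neutrophils were therefore read beside the receptors. Of 14, 13 had a lower mean in mimic ankles, 10 of them at an unadjusted limma p under 0.05 and 1 (G0s2) higher at that level, with 0 passing over all genes, and the median log2 fold change was -0.95. The 10 became 5 without control replicate 3 and 3 without control replicate 5, with medians of -0.81 and -0.83. Over all genes tested, 10.1% were lower at an unadjusted limma p under 0.05 with all libraries. In either direction 2356 genes reached that level, 1657 without control replicate 3 and 1216 without control replicate 5. Csf3r, the receptor for G-CSF, stood at 60.3, 81.2 and 92.2 FPKM in controls and 49.4, 34.7, 36.2 and 26.1 FPKM in mimic libraries (log2 fold change -1.09, SE 0.22). Stfa2l1, a stefin of neutrophils, and Trem1, an amplifying receptor of myeloid cells, differed by -1.51 (SE 0.34) and -1.22 (SE 0.28) on the log2 scale. S100a9, an abundant calcium-binding protein of neutrophils, overlapped between groups, at 1663, 3141 and 3069 FPKM and 1716, 1358, 1540 and 691 FPKM. The whole list summed to 2988, 5764 and 5482 FPKM in controls and 3102, 2541, 2824 and 1269 FPKM in mimic ankles, so that control replicate 2 lay among the mimic libraries. The 11 genes of neutrophil precursors, found in bone marrow, had -0.31 as median log2 fold change, 0 with an unadjusted limma p under 0.05, and sums of 273 to 1110 FPKM in controls and 191 to 699 FPKM in mimic ankles. Leaving out control replicate 3 turned that median to 0.29, and leaving out mimic replicate 5 to 0.0080.

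Relative to the mean of the mature neutrophil list in the same library, Cxcr2 stood at -0.44, -0.34 and -0.26 log2 units in controls and -1.11, -0.75, -1.19 and -0.61 in mimic ankles. Each mimic library was below each control. The difference was -0.57, and the exact 2-sided permutation test over all 35 choices of 3 libraries gave p = 0.0571, where the smallest value it can give is 0.0286. Against Csf3r alone the difference was -0.34 and against S100a9 alone -0.43, each with an exact permutation p = 0.171. The difference from the neutrophil list thus did not pass the test.

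The values of several members rested on which control libraries were kept. Control replicate 5 had the highest level of 6 of the 7 members, all but Ppbp, and mimic replicate 5 the lowest of 6, all but Cxcl5. Without control replicate 5, the log2 fold changes were -1.51 for Cxcl1, -0.63 for Cxcl2, -0.72 for Cxcl3, -1.14 for Cxcl5, -0.89 for Cxcr1 and -1.25 for Cxcr2. In that fit 5 members had groups that did not overlap, beside 10.3% of all genes, and 4 were lower at an unadjusted limma p under 0.05, beside 4.82% of all genes, while the limma adjusted p ranged from 0.465 to 0.961. Control replicate 2, in contrast, had the lowest control level of all 7 members and lay within the mimic range for Cxcl2 and Ppbp. Without it the log2 fold changes of Cxcl5 and Cxcr2 were -1.72 and -1.76, and these 2 members passed over all genes (limma adjusted p = 0.0302 and 0.0219), beside 1.51% of all genes that were called lower. The other members did not pass in that fit, with -1.68 for Cxcl1, -1.22 for Cxcl2, -1.39 for Cxcl3, -1.50 for Cxcr1 and -0.18 for Ppbp (limma adjusted p from 0.0558 to 0.870).

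**Figure D3:**
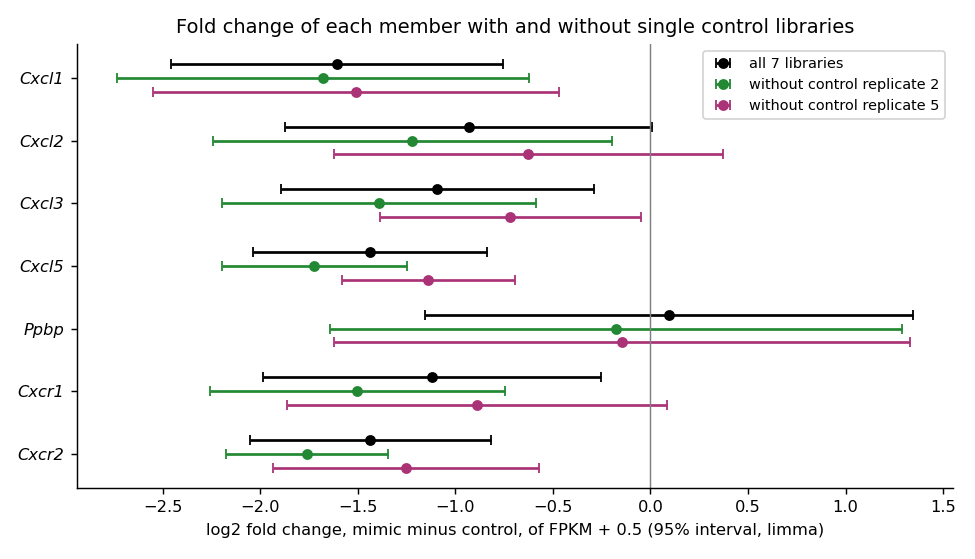
Log2 fold change of each member, mimic minus control (x axis, log2 units of FPKM + 0.5), with its 95% limma interval, for all 7 libraries (black) and without control replicate 2 (green) or control replicate 5 (purple). Every point except that of Ppbp with all libraries lies below 0; the points without control replicate 5 are nearest to 0 for 6 members, -0.63 for Cxcl2 and -1.14 for Cxcl5 among them.

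Genes of other neutrophil attractants, of their receptors and of enzymes that make them were also lower in mean. Of 14 tested genes of other chemoattractants and their receptors, all 14 had a lower mean in mimic ankles, 9 at an unadjusted limma p under 0.05, and 7 with groups apart; the median log2 fold change was -0.69. Csf3, the growth factor that releases neutrophils from marrow, was at 4.22 ± 0.74 and 1.18 ± 0.71 FPKM, with -1.57 (SE 0.31) as log2 fold change. Alox5, the enzyme that starts leukotriene synthesis, had -0.71 (SE 0.14), and Ccr1, a receptor for CC chemokines, -0.81 (SE 0.17). The CC chemokines Ccl3 (-0.35, SE 0.22) and Ccl4 (-0.43, SE 0.33) overlapped between groups. Csf3r and Fpr1, both among the 9, also stand in the mature neutrophil list. None of the 14 passed over all genes. The count of 9 became 5 without control replicate 5 and 6 without control replicate 3, mimic replicate 2 or mimic replicate 5. Over all genes tested, 10.1% were lower at that level and 8.84% were apart with the mimic lower. In either direction 2356 genes reached that level with all libraries. Without control replicate 5, control replicate 3, mimic replicate 2 and mimic replicate 5 these were 1216, 1657, 1681 and 1666.

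Signalling genes downstream of CXCR2 had smaller differences. Of 22, 21 had a lower mean, 11 of them at an unadjusted limma p under 0.05 and 5 with groups apart, and the median was -0.34. Rac2, the GTPase that steers neutrophil movement, stood at 64.6 ± 8.10 and 46.0 ± 4.21 FPKM (-0.48, SE 0.11). For Pik3r5, a subunit of the kinase PI3K gamma, the log2 fold change was -0.59 (SE 0.15), and for the Src family kinase Fgr -0.79 (SE 0.23). The count of 11 became 4 without control replicate 3 or 5, 5 without mimic replicate 2 or 5 and 17 without control replicate 2. Over all genes tested, 10.1% were lower at that level with all libraries, 8.84% were apart with the mimic lower, and 2356 reached that level in either direction. That total became 1657 and 1216 without control replicates 3 and 5, 1681 and 1666 without mimic replicates 2 and 5, and 3833 without control replicate 2. The signalling genes are expressed by many leukocytes.

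Among inducers of the ligands and regulators of their mRNA, 19 of 20 tested genes had a lower mean, with a median of -0.33. Of these, 11 were at an unadjusted limma p under 0.05 and 8 had groups apart. Over all genes tested, 10.1% were lower at that level and 8.84% were apart with the mimic lower. Il1b, the cytokine that induces these chemokines in fibroblasts, stood at 84.8, 126 and 144 FPKM in controls and 50.7, 64.8, 53.0 and 31.0 FPKM in mimic libraries (-1.25, SE 0.27). Il17ra, a receptor chain for IL-17, was at 34.9 ± 5.01 and 21.4 ± 3.14 FPKM (-0.70, SE 0.14). Zc3h12a encodes Regnase-1, an RNase that degrades inflammatory transcripts, and it had a log2 fold change of -0.76 (SE 0.12). Il1a, Il17a and Il17f were under the filter.

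The other CXC chemokines and receptors had means on both sides of the controls. Of 12 tested, 8 had a lower and 4 a higher mean, and the median was -0.20. Cxcl9, an interferon-induced ligand of the T cell receptor CXCR3, was higher in every mimic library, at 2.39 to 2.79 FPKM in controls and 4.08 to 20.6 FPKM in mimic ankles (1.63, SE 0.55), and Cxcl14, a chemokine of resident tissue, had -0.41 (SE 0.17). Both had an unadjusted limma p under 0.05 and neither passed over all genes. At that level 10.1% of the 13418 genes tested were lower, and 1003 genes were higher. Of 8 genes of decoy receptors and presentation on endothelium, 4 had a lower mean and the median was -0.042. Sdc4, a heparan sulphate proteoglycan that can hold chemokines at the cell surface, was at 80.9 ± 9.03 and 53.6 ± 4.25 FPKM (-0.59, SE 0.096). It was the 1 gene of these 8 at an unadjusted limma p under 0.05, beside the 10.1% of all genes that were lower.

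Cells that make the ligands were read by their markers. Macrophage genes summed to 1132 to 1295 FPKM in controls and 954 to 1253 FPKM in mimic ankles. At an unadjusted limma p under 0.05, 4 of 9 were lower, beside 10.1% of all genes tested. The 4 became 2 without control replicate 3, control replicate 5 or mimic replicate 2. Among these, Cd14, a co-receptor for endotoxin, had a log2 fold change of -0.71, Csf1r, the receptor of macrophage growth factor, -0.32, and Cd68, a lysosomal protein, -0.28. Of the 9 macrophage genes, 6 had a lower mean and 3 a higher one, namely C1qa (0.018), C1qb (0.047) and Mertk (0.047). The median of the list was -0.22. Fibroblast genes summed to 7903 to 8817 FPKM in controls and 8563 to 9022 FPKM in mimic ankles. Of these 9 genes, 5 had a lower mean and 4 a higher one, with a median of -0.11. Pdpn, a marker of lining and activated fibroblasts, was lower at an unadjusted limma p under 0.05 (-0.30). Htra4 (1.29) and Cd55 (0.41, or 0.24 without control replicate 5) were higher at that level, as were 1003 of the 13418 genes tested. In the bone and cartilage list of 6 genes, 1 had a lower mean and 5 a higher one, with a median of 0.33. Col2a1, the collagen of cartilage, had a log2 fold change of 0.69. Bglap, the osteoblast protein osteocalcin, had 1.49, or 0.76 without control replicate 5, and Ctsk, the osteoclast protease, -0.23. The part of these lists in the ligand values was not tested.

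Position was not used to choose the members, and the 5 ligand genes lie in a single cluster of 146.6 kb on mouse chromosome 5 (mm10, 90759299 to 90905938), all on the plus strand. Along it stand Cxcl5, Ppbp, Pf4, Cxcl3, Cxcl15, Cxcl1 and Cxcl2, in that order. Pf4, which encodes platelet factor 4 and lies between Ppbp and Cxcl3, was at 71.6, 94.6 and 65.9 FPKM in controls and 66.2, 69.2, 90.7 and 48.1 FPKM in mimic ankles, with overlapping groups (-0.19, SE 0.22). Its fold change ran from -0.34 without mimic replicate 4 to -0.034 without mimic replicate 5. Cxcl15, the lung chemokine lungkine, was at 0.017 to 0.096 FPKM, under the filter. Thus the platelet genes Ppbp and Pf4 overlapped between groups while Cxcl5 before them and Cxcl3 after them did not. Of the 16 non-member genes within 500 kb, 5 were tested, with a median log2 fold change of -0.16. Ereg, which encodes the growth factor epiregulin, was the 1 of these with groups apart and an unadjusted limma p under 0.05. It averaged 2.36 FPKM in controls and 1.04 FPKM in mimic ankles (-0.89, SE 0.17). Among all genes tested, 8.84% were apart with the mimic lower and 10.1% were lower at that level. A gene without a symbol, at 0 to 0.16 FPKM, overlaps Ereg on the minus strand, and the strand setting is not known.

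**Figure D4:**
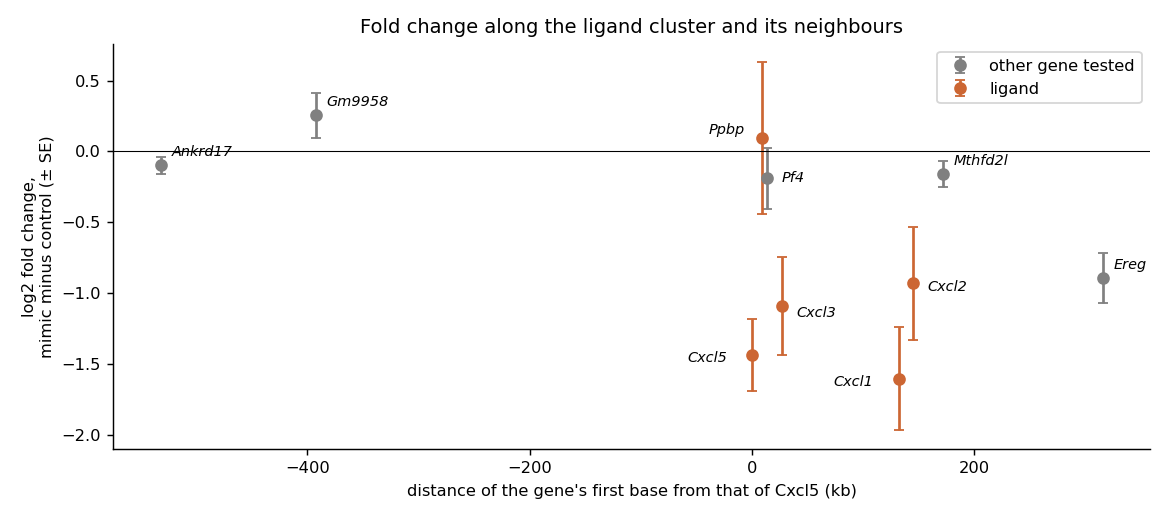
Log2 fold change, mimic minus control, with its SE (y axis) against the distance of each gene's first base from that of Cxcl5 (x axis, kb), for the ligands (orange) and the other tested genes within 500 kb (grey). Ppbp (0.095) and Pf4 (-0.19) lie near 0 between Cxcl5 (-1.44) and Cxcl3 (-1.09).

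Profiles over the 7 libraries were compared by the root mean square difference between centred log2(FPKM + 0.5) values, as a description. Genes near a member by this measure have a fold change near its own by construction. Among all tested genes, those most like Cxcl1 were Ptgs2, which encodes the inducible prostaglandin synthase COX-2 (0.14), Csf3 (0.28) and Lif, an IL-6 family cytokine (0.29). Ptgs2 and Lif had log2 fold changes of -1.50 and -1.31. For Cxcl5 the nearest were Mrgpra2b, a receptor found on neutrophils (0.20), Ptx3, the long pentraxin (0.20), and Prok2, a myeloid prokineticin (0.22). Cxcl2 was nearest to Hdc, the histamine-forming enzyme (0.21), Il1r2, the decoy receptor of IL-1 (0.22), and Acod1, which makes itaconate (0.24), and Cxcl3 to Il1r2 (0.18), Has2, a hyaluronan synthase (0.20), and Clec4e, the receptor Mincle (0.20).

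The receptors and Ppbp had their own nearest genes. Cxcr1 was closest to Clec4e (0.072), S100a9 (0.12) and Tarm1, a myeloid activating receptor (0.13). Cxcr2 was closest to Stfa2l1 (0.14), Trem1 (0.16) and Mrgpra2b (0.17). Ppbp was closest to Tubb1, the tubulin of platelets (0.12), Gp5, a platelet glycoprotein (0.13), and Ly6a2 (0.16). Among the members themselves, the nearest pairs were Cxcl2 and Cxcl3 (0.21), Cxcr1 and Cxcr2 (0.25) and Cxcl5 and Cxcr2 (0.26). The longest annotated transcripts of Cxcl2 and Cxcl3 share sequence. Ppbp lay at least 0.82 from every other member. Cxcl1 was 0.44 from its nearest member, Cxcl5, its levels being alike in the controls and unlike among the mimic libraries.

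**Figure D5:**
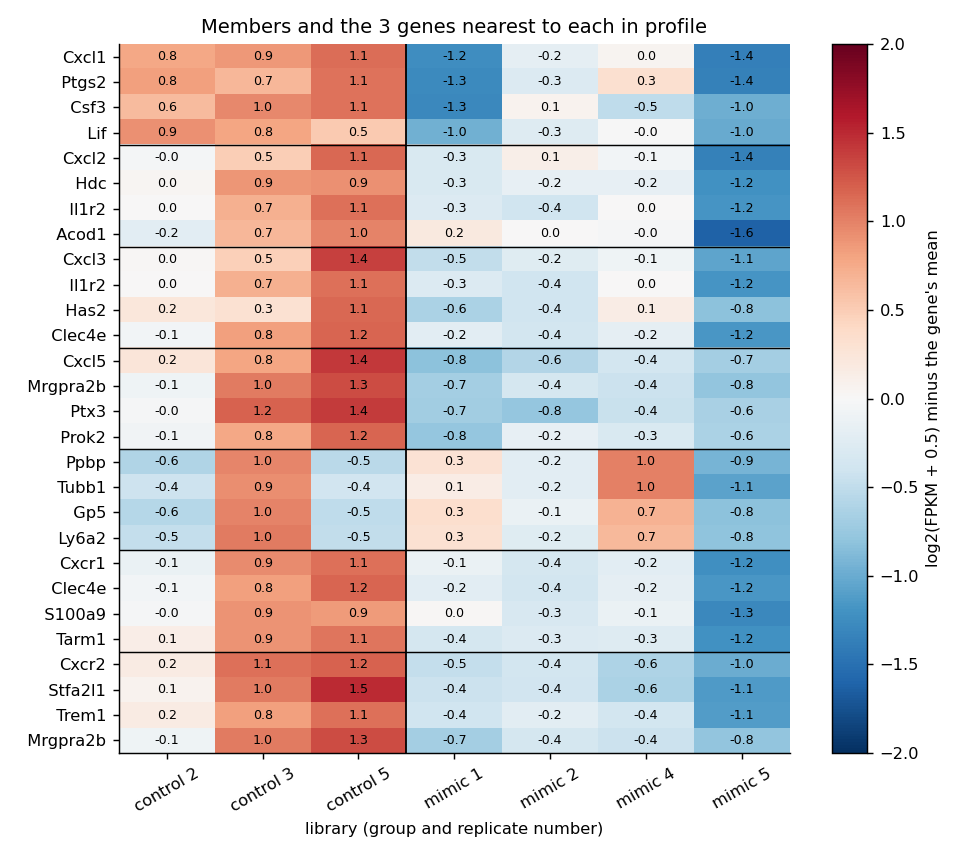
Log2(FPKM + 0.5) minus the gene's mean over 7 libraries (colour and printed value) for each member and the 3 tested genes nearest to it (rows), by library (columns, group and replicate number). Rows of the Ppbp block are high in control replicate 3 and mimic replicate 4, whereas every row of the other blocks is highest in a control and lowest in a mimic library.

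Matches to the seed of miR-17-5p printed above were searched in the longest annotated 3′ UTR of each member (GENCODE release M21, basic set): the 8-base match GCACTTTA, the 7-base matches GCACTTT and CACTTTA, and the 6-base CACTTT. The UTRs of Cxcl1, Cxcl2, Cxcl3, Cxcl5 and Cxcr1, which were 592, 1494, 645, 1111 and 21 bases long, held none of them. That of Cxcr1 is too short for the lack of a match to be informative. That of Cxcl2 is longer than the 1083 bases of joined exons over which its reads were counted. Part of it therefore lies outside the exons behind its FPKM. Ppbp held a 6-base match and Cxcr2 a 7-base match of the type CACTTTA. Of 12487 tested genes with a UTR, 21.2% held a match of 7 or 8 bases and 40.5% one of 6. The sites of Ppbp (bases 85 to 90 of 656) and Cxcr2 (bases 1152 to 1157 of 1818) are printed 5′ to 3′ with the 6-base match in capitals. A match is a run of letters and does not show binding, and binding was not measured.
Ppbp site: aattatttttcCACTTTgaaattgggat
Cxcr2 site: gtgttttacctCACTTTaccaaaaatat

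The same UTRs were searched for ATTTA, the pentamer of AU-rich elements through which Zfp36 and related proteins shorten the life of cytokine mRNA. Cxcl1 held 7 copies, Cxcl2 11, Cxcl3 5, Cxcl5 5, Cxcr2 2, Ppbp 1 and Cxcr1 0, where the median tested gene held 1. Per 100 bases this came to 1.18 in Cxcl1, 0.74 in Cxcl2, 0.78 in Cxcl3 and 0.45 in Cxcl5, against 0.15 in Ppbp, 0.11 in Cxcr2 and a median of 0.13 over the tested genes. A density as high as that of Cxcl1 was found in 0.497% of them, and as high as that of Cxcl5 in 8.03%. Cxcl1, Cxcl2, Cxcl3 and Cxcl5 thus lay above that median, Ppbp close to it and Cxcr2 below it. The annotated UTR of Cxcr1, 21 bases long, is too short for its 0 copies to be informative. For Cxcl2 the UTR searched, 1494 bases, exceeds the 1083 bases of exons counted, so some of its 11 copies may lie outside the transcript measured.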

How the data were processed

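The authors deposited one table of FPKM values per gene and library, with gene length, Entrez number and coordinates; per the submitters' processing notes the tools were STAR 2.5.2b, bcl2fastq 2.20, Subread with featureCounts, and DESeq2 1.14.1, on the builds mm10 and GRCm38. No source used here gives the annotation, strand setting or read length. FPKM multiplied by length gave whole multiples of a step in 100% of values (tolerance 0.01 of a read), and the reads were recovered from it; 1 read in 1 kb was worth 0.0321 to 0.0364 FPKM. No pair of libraries agreed within sampling noise (chi-square of at least 17.6 per gene over 21 pairs). Symbols were matched for 25275 Entrez numbers in RefSeq's gene table for this build.

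Groups were compared with limma 3.58.1 under R 4.3.3 (lmFit, eBayes with a trend) on log2(FPKM + 0.5), a scale that understates changes of low genes, over the 13418 genes whose mean reached 1 FPKM, 2-sided, with Benjamini-Hochberg adjustment over all of them at 0.05. It was tested on simulated data. No member fell below the filter, so the exact test planned for such members was not needed. Replicate numbers 2 and 5 occur in both groups; the labels do not say that they pair libraries, and the main test holds no block.

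The members, gene lists and tests were chosen with earlier results of these data known. Named genes are the members; up to 3 genes of each list with the smallest p, of which those with an unadjusted p under 0.05 are printed; and the 3 genes nearest to each member in profile. Pf4, Cxcl15 and Ereg are named from the ligand cluster. G0s2, S100a9, Fpr1, Ccl3, Ccl4, C1qa, C1qb, Mertk and genes under the filter were named after their values were seen. Alternatives were pseudocounts of 0.1 and 1, no filter or one at 5 FPKM, quantile and median-of-ratios scaling, no trend, the replicate block, limma-voom on recovered reads and leaving out each library. Promoters and the mature microRNA come from RefSeq (GRCm38.p6) and UTRs from GENCODE. Other tools were Python 3.11.15, pandas 2.3.3, scipy 1.17.1 and matplotlib 3.10.9.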

Additional observations from a re-analysis of the deposited data

How the results depend on the processing

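Over 16 alternative settings, 111 values of the members' fold changes were computed: 105 kept their direction and side of the threshold, 2 passed it and 4 turned, all 4 of Ppbp. The 2 that passed were Cxcl5 and Cxcr2 without control replicate 2, and the range over leaving out each library was 0 to 2 members lower at an adjusted limma p under 0.05. Over all genes the same range was 0 to 115 higher, 0 to 203 lower and 1216 to 3833 at an unadjusted p under 0.05; with no filter 1 gene was lower. Leaving out each library, Ppbp ranged from -0.23 to 0.61. Its nearest genes turned too, which follows from their choice by likeness to it over the same libraries. Tubb1 ranged from -0.42 to 0.37, Gp5 from -0.23 to 0.56, with -0.022 under quantile normalization, and Ly6a2 from -0.31 to 0.46. Cxcr1 has no value at a mean of at least 5 FPKM. The difference of Cxcr2 from the neutrophil list lay between -0.67 and -0.48 when single libraries were left out. The median of the platelet list ran from -0.20 to 0.37 and that of the decoy and presentation list from -0.097 to 0.068 in the same way. The other CXC list, with 1 gene lower and 1 higher at an unadjusted p under 0.05, gave 0 to 3 and 0 to 1. The replicate numbers 2 and 5 are shared by both groups. Libraries of the same number deviated together for number 2 (correlation 0.535) and apart for number 5 (-0.435). Pairs with different numbers ran from -0.518 to 0.534, so these correlations cannot tell whether the numbers pair libraries. With the replicate block 1064 genes had an unadjusted p under 0.05, 2 members were lower at that level, and Ppbp had -0.0033 and Cxcl9 0.73. The cause of these shifts was not tested. With 12 to 46 reads per mimic library, Cxcr1 is the member whose values depth limits most.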
